A study of Mus musculus with 6 samples.

Results

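Cytosolic ribosomal protein genes encode the proteins of the ribosome in the cytoplasm, and their transcripts were followed here in stromal cells of 2 mouse tissues. Members were taken from the deposited gene table by symbol, as Rpl or Rps plus a number with an optional ending a, x, l or l plus a digit, together with Rplp0, Rplp1, Rplp2 and Rpsa. Symbols of processed copies (-ps) and of the S6 kinases were left out. Of 52997 symbols in the table, 86 followed this spelling, and 81 of them had at least 10 counts summed over all libraries, 49 of the large and 32 of the small subunit. The 5 below the minimum were Rps12l1 with 0 counts, Rpl10l and Rpl32l with 3 each, Rpl6l with 5 and Rpl3l with 7, and the member nearest above it was Rpl39l with 36. Of the 81 members, 80 passed the filter on low counts and were tested, and Rpl39l did not pass.

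The cells were mesenchymal stromal cells, the fibroblast-like cells of connective tissue, of untreated 8-week-old C57BL/6 mice. They came from hindlimb skeletal muscle (3 libraries, called muscle 2, 3 and 4 as in the count table) or from lymph nodes of inguinal, axillary, brachial and cervical sites combined (3 libraries, called lymph node 1, 2 and 3). Each library was made from 1000 double-sorted cells, and the labels name no allele, transgene or agent. The series text calls the 3 samples of a tissue biological replicates, but 2 muscle titles carry the same number with different letters, and no label names the animals. P-values therefore measure only the spread between libraries, part of which may be technical, and n counts libraries.

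Total counts ran from 415460 in muscle 4 to 2397134 in lymph node 2. All 12 stromal markers checked, among them Pdgfra, Col1a1 and Dcn, had counts in every library. Muscle 4 stood apart: gene models overlapping satellite repeats held 16.5% of its counts, against 2.37% and 3.98% in muscle 2 and 3 and between 0.185% and 0.272% in lymph node. Blood cell markers were also high in it, with 551 CPM (counts scaled to library size) summed over 12 T cell markers, 2239 CPM over 9 B cell markers and 1909 CPM over 11 myeloid markers. In muscle 4 0 of the T cell, 0 of the B cell and 3 of the myeloid markers were at 0, while between 2 and 6 of the T cell markers were at 0 in each other library. The same sums ran from 5.14 to 14.8 CPM, from 18.8 to 263 CPM and from 25.3 to 47.3 CPM in the other libraries. Ptprc, which is not particular to myeloid cells, gave 589 CPM of the myeloid sum in muscle 4, and Cd68 was among the 3 myeloid markers at 0 there. Results are therefore given with and without muscle 4.

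The ribosome reads messenger RNA on its small subunit and joins amino acids on its large subunit. Each subunit is a scaffold of ribosomal RNA into which mostly single copies of many small, basic proteins are built, so cells make these proteins in matched amounts. Their messenger RNAs are among the most abundant in a growing cell. Many start with a cytosine followed by a stretch of pyrimidines, the terminal oligopyrimidine (TOP) tract, through which the growth kinase mTOR and the binding protein LARP1 set how strongly they are translated.

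The annotated start sites of some members show this tract, a feature that the choice of members did not use. RefSeq promoter entries (GRCm38.p6) were found for 60 members. A cytosine at the annotated start followed by at least 4 C or T bases was present in 13 of them (21.7%), against 813 of 27025 genes with an entry (3.01%) and 0 of 69 mitochondrial ribosomal protein genes. Allowing a run of at least 8 C or T that begins with C, after another base, within 10 bases of the annotated start, it was 13 members (21.7%), 6.42% of all genes and 5 of 69 mitochondrial ribosomal protein genes (7.25%). The members found by the first and the second definition share 8 genes. No match says only that these letters are not at the annotated start. The windows below run from 10 bases before to 20 bases from the start, 5′ to 3′ on the gene's strand, with the run of at least 8 pyrimidines in capitals. They are Rps18, Rps27, the S6 kinase substrate Rps6, Rpl35a and Rps10, which meet both definitions, and Rpl10, which meets neither. The genes shown were lower in muscle 2 and 3 than in every lymph node library. The gap was narrow in Rpl35a (muscle 2 at 69.1 CPM, lymph node 3 at 69.2) and Rps10 (muscle 2 at 53.8 CPM, lymph node 3 at 54.6). Rpl14, Rpl15 and Rpl35 also meet both definitions and are not printed. In these the tissues overlapped without muscle 4, with log2 fold changes of -0.20, 0.05 and -0.25. The shared order is therefore a feature of the windows printed, not of all 8 genes.
Rps18, chr17:33955646-33955675, minus strand: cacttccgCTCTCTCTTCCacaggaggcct
Rps27, chr3:90213629-90213658, minus strand: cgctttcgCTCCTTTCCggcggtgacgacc
Rps6, chr4:86857348-86857377, minus strand: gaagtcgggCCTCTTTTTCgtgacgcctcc
Rpl35a, chr16:33056472-33056501, plus strand: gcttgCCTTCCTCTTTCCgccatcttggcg
Rps10, chr17:27635225-27635254, minus strand: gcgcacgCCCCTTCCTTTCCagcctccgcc
Rpl10, chrX:74270806-74270835, plus strand: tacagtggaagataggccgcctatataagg
The 13 members with the tract exactly at the start had a median log2 fold change, muscle minus lymph node, of -0.01 with all libraries and -0.28 without muscle 4. The 46 tested members with an entry and no tract there had -0.18 and -0.34. Both groups therefore moved the same way when muscle 4 was left out, and their difference was not tested.

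The genes were also described by 2 more features. They lie on 19 chromosomes, so members are not neighbours of a common cluster. In GENCODE M21 29 of the 81 members (35.8%) contain at least 1 small nucleolar RNA gene on their own strand, against 253 of 21664 protein-coding genes (1.17%). Such RNAs guide chemical modification of ribosomal RNA and are cut from introns of their host. Rpl4 holds 5 of the 56 in members and Rpl13a holds 4.

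All members together made up about 1% of the counts of each library. The summed share was 0.885%, 0.903% and 1.11% in muscle 2, 3 and 4, and 1.02%, 1.08% and 1.01% in lymph node 1, 2 and 3. Muscle 2 and 3 lay below every lymph node library and muscle 4 highest. The exact (Clopper-Pearson) 95% intervals, which cover counting error only, ran from 1.08% to 1.15% in muscle 4 and from 1.07% to 1.10% in lymph node 2, which overlap, and from 0.872% to 0.899% in muscle 2. With repeat models left out of the total, the shares were 0.966%, 1.01% and 1.43% in muscle 2, 3 and 4 and 1.07%, 1.14% and 1.06% in lymph node 1, 2 and 3, so muscle 4 turned the order of the tissue means. As a mean the share was 0.967% ± 0.127 in muscle and 1.04% ± 0.0419 in lymph node (SD, n = 3 each), a difference smaller than the spread of the muscle libraries. In bulk RNA, more cells of a type rich in these transcripts and more transcript per cell cannot be told apart.

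Scaled by TMM (a scaling that centres most genes between libraries), the members summed to 8612, 8719 and 12427 CPM in muscle 2, 3 and 4, and to 10738, 11162 and 10556 CPM in lymph node 1, 2 and 3. Muscle 2 and 3 thus carried 0.801 times the lymph node mean, and all 3 muscle libraries together 0.917 times. The large subunit summed to 5007, 4910 and 6887 CPM in muscle and to 6111, 6379 and 6011 CPM in lymph node. The small subunit summed to 3605, 3809 and 5540 CPM in muscle and to 4627, 4783 and 4545 CPM in lymph node. The ratio of small to large subunit counts was 0.767 ± 0.0429 in muscle and 0.754 ± 0.00397 in lymph node. Blood cell marker sums moved with the total in muscle 4, and their part in it was not tested.

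**Figure D1:**
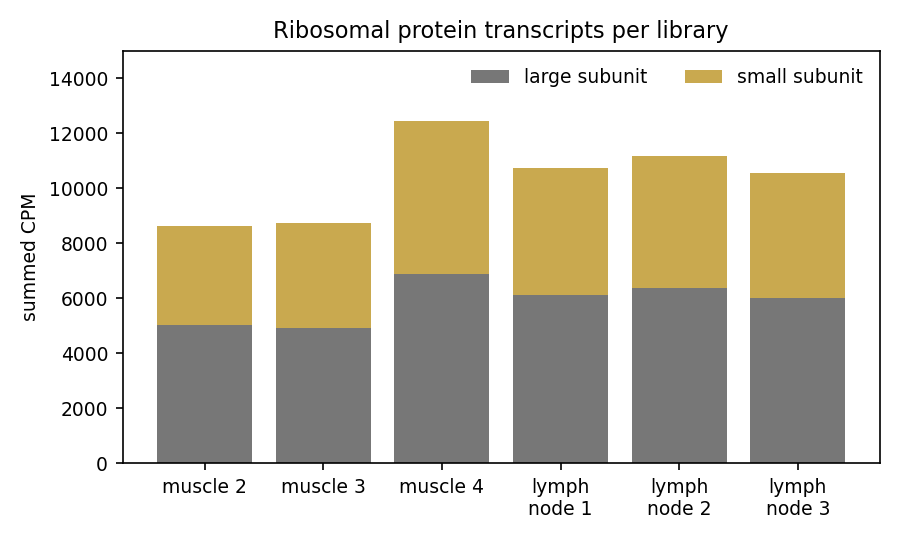
Summed CPM of the 81 ribosomal protein genes in each of the 6 libraries, with large subunit members in grey and small subunit members in yellow. Muscle 2 and 3 reach 8612 and 8719 CPM, muscle 4 reaches 12427 CPM, and the lymph node libraries lie between 10556 and 11162 CPM.

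The main comparison asked which members stromal cells of muscle and lymph node express at different levels. With all 6 libraries, no ribosomal protein gene passed the test: 0 of 80 tested members were higher and 0 lower in muscle at a Benjamini-Hochberg adjusted p under 0.05 (edgeR quasi-likelihood F test, two-sided), where 4.32% of all 10823 tested genes were called, 1.46% higher and 2.86% lower. At an unadjusted p under 0.05 edgeR gave 5 members, all lower in muscle, where 8.42% of all genes were lower. DESeq2 also called 0 members, where it called 6.34% of all genes, 2.4% higher and 3.94% lower, and 3 members were lower at an unadjusted p under 0.05, against 7.84% of all genes. With limma-voom 0 members were called, where 5.81% of all genes were, 1.92% higher and 3.89% lower, and 7 members were lower at an unadjusted p under 0.05, against 9.88%. It put 67 members below 0, against 51.6% of all genes. Library weights in limma-voom, which let a deviant library count less, gave 9 members lower and 0 higher, where 7.61% of all genes were called lower and 5.08% higher. In the edgeR fit the smallest adjusted p of a member was 0.122. The median log2 fold change of the members in it was -0.11, against 0.02 for all tested genes, and 57 of the 80 were below 0, against 48.5% of all genes. Tissue levels did not overlap in 12 members, all lower in muscle, where 13.7% of all genes were lower without overlap and 9.93% higher.

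Without muscle 4, 9 of 80 members fell in muscle and 0 rose, where 7.58% of all 11246 genes then tested were called lower and 4.79% higher. This fit rests on 2 muscle libraries, and the labels do not say whether they came from separate animals. Its standard errors and p-values may therefore leave out the spread between animals in muscle. At an unadjusted p under 0.05 there were 30 members, all lower, against 12.9% of all genes. The median log2 fold change was -0.32, against 0.01 for all genes, and 71 of 80 members were below 0, against 49.2% of all genes. Muscle 2 and 3 lay below every lymph node library in 51 of the 80 members and above in 0, where 19.9% of all genes were lower without overlap and 19.8% higher. Of the large subunit 5 of 48 tested members fell (median -0.30) and of the small subunit 4 of 32 (median -0.35). The median standard error of a member was 0.24 with all libraries and 0.17 without muscle 4. When any other single library was left out, 0 members were called, where between 1% and 1.63% of all genes were called lower. Muscle 2 and 3 also held more counts in satellite-overlapping models (2.37% and 3.98%) than the lymph node libraries (0.185% to 0.272%), and the part of this in the difference without muscle 4 was not tested.

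**Figure D2:**
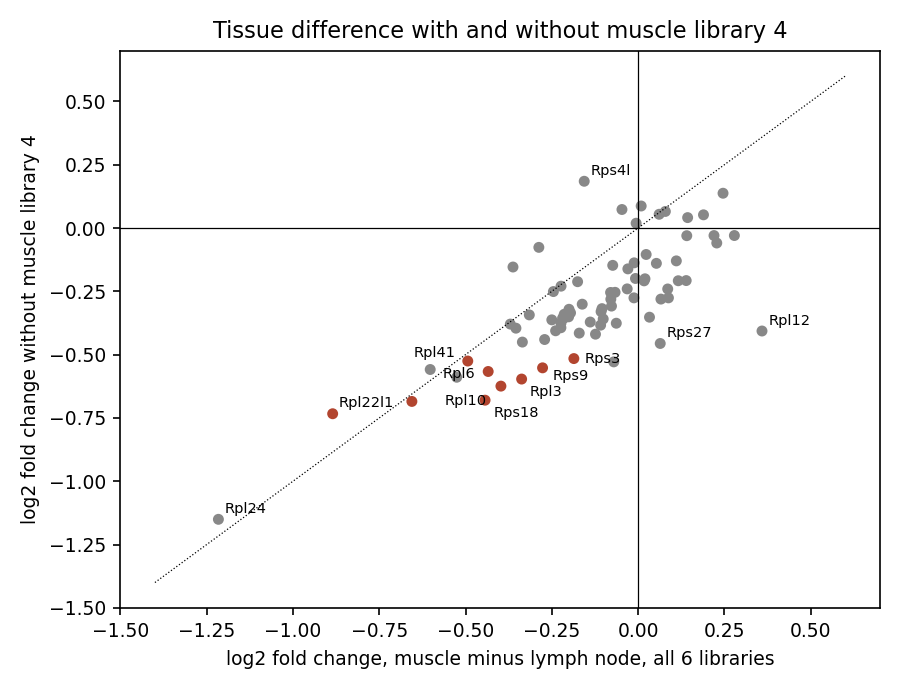
Log2 fold change (muscle minus lymph node) of the 80 tested members with all 6 libraries (horizontal axis) and without muscle 4 (vertical axis). Red points are the 9 members called without muscle 4, of which 8 carry their names, the dotted line marks equal values, and most points lie below it, with medians of -0.11 and -0.32.

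Of the 9 members that fell without muscle 4, 8 are described here. Rpl22l1, Rpl10, Rpl3 and Rps3 also fall under the rule for named genes, and Rpl41, Rpl6, Rps18 and Rps9 were named after their values were seen. Reads of several can be split with near-identical copies elsewhere in the genome. Beside each gene stands the percent of its 25-base words, the length of 1 read, that are found in another gene's transcripts too (called shared words).

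Rpl10 (chromosome X, 74270812 to 74273135, GRCm38), which joins the large subunit late in its assembly, measured 166, 159 and 253 CPM in muscle 2, 3 and 4 and 228, 276 and 244 CPM in lymph node 1, 2 and 3. Muscle 2 and 3 were below every lymph node library and muscle 4 was inside their range. Its log2 fold change without muscle 4 was -0.62 ± 0.15 (SE, edgeR adjusted p = 0.0103) and with it -0.40 ± 0.22 (adjusted p = 0.463). It shares 76.4% of its words with other genes.

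Rpl3 (chromosome 15, 80077791 to 80091868), which lies near the centre where peptide bonds form, measured 165, 141 and 253 CPM in muscle and 208, 252 and 232 CPM in the lymph node libraries, so muscle 2 and 3 were below and muscle 4 was just above all lymph node libraries. Without muscle 4 its log2 fold change was -0.60 ± 0.15 (adjusted p = 0.0166) and with it -0.34 ± 0.24 (adjusted p = 0.589), and 70.8% of its words are shared.

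Rpl6, another structural protein of the large subunit, was even in lymph node at 111, 113 and 113 CPM. In muscle it measured 78.1, 73.8 and 102 CPM, below every lymph node library in all 3 (-0.57 ± 0.15 without muscle 4, adjusted p = 0.0228, and -0.43 ± 0.20 with it, adjusted p = 0.359). Rpl41, which encodes one of the smallest proteins of the ribosome, measured 174, 149 and 172 CPM in muscle and 218, 235 and 243 CPM in the lymph node libraries. All 3 muscle libraries were below all lymph node libraries, with muscle 4 between the other 2 (-0.53 ± 0.14, adjusted p = 0.0267, and -0.49 ± 0.17, adjusted p = 0.194). Words shared with other genes were 67.6% for Rpl6 and 40.7% for Rpl41.

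Rps18 of the small subunit measured 51.7, 53.8 and 88.7 CPM in muscle and 82.8, 80.3 and 88.8 CPM in the lymph node libraries. Muscle 4 reached the lymph node level, and the log2 fold change was -0.68 ± 0.17 without it (adjusted p = 0.0143) and -0.44 ± 0.25 with it (adjusted p = 0.464). Of its words 88.9% are shared.

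Rps3 and Rps9, which line the channel where messenger RNA enters, are the called members with the least shared sequence, at 13.3% and 19.1% of words. Rps3 (chromosome 7, 99477896 to 99483738) measured 412, 416 and 739 CPM in muscle and 583, 603 and 582 CPM in the lymph node libraries. Rps9 (chromosome 7, 3703993 to 3706897) measured 172, 188 and 301 CPM in muscle and 242, 274 and 271 CPM in the lymph node libraries. In both genes muscle 2 and 3 were below and muscle 4 above every lymph node library. The log2 fold change of Rps3 was -0.52 ± 0.13 without muscle 4 (adjusted p = 0.0154) and -0.19 ± 0.24 with it (adjusted p = 0.800). That of Rps9 was -0.55 ± 0.14 (adjusted p = 0.0179) and -0.28 ± 0.23 (adjusted p = 0.668).

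**Figure D3:**
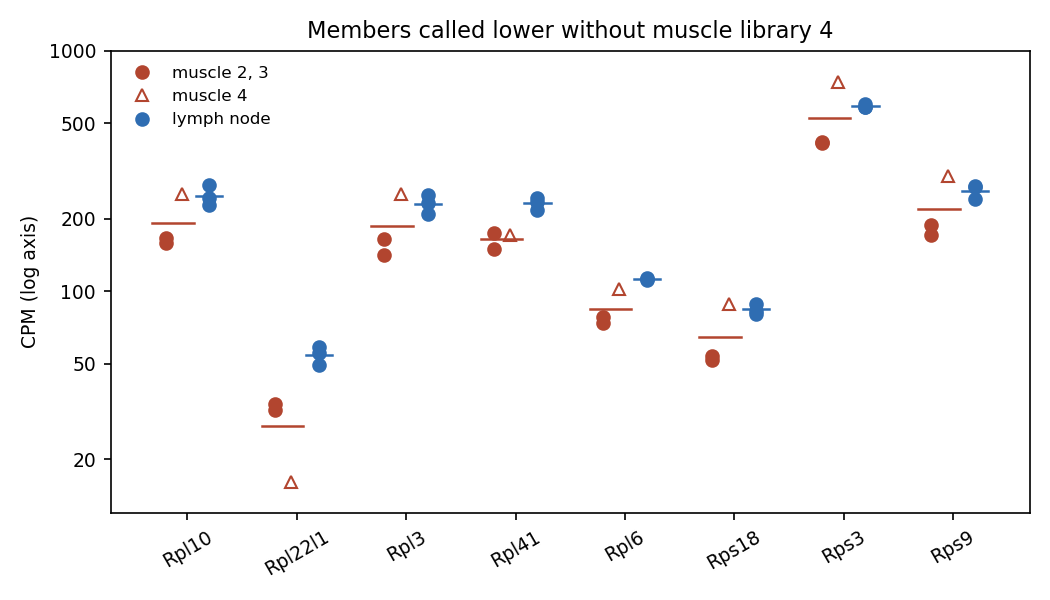
CPM on a log axis of 8 of the 9 members called lower in muscle without muscle 4, 1 point per library, with the mean of each tissue as a bar (n = 3). Muscle 4 (open triangle) lies above the lymph node range in Rpl3, Rps3 and Rps9, inside it in Rpl10 and Rps18, and below it in Rpl22l1, Rpl41 and Rpl6.

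Rpl22l1, the other called member described here, is a paralog, a second gene for a close relative of the RNA-binding large subunit protein Rpl22. Rpl22l1 (chromosome 3, 28805436 to 28807424) measured 32.2, 33.8 and 16.1 CPM in muscle and 49.1, 58.4 and 55.5 CPM in the lymph node libraries. Every muscle library was below every lymph node library, with muscle 4 lowest at 6 counts. Its log2 fold change was -0.73 ± 0.20 without muscle 4 (adjusted p = 0.0246) and -0.89 ± 0.27 with it (edgeR adjusted p = 0.122, the smallest of any member in that fit). Rpl22 itself measured 99.7, 127 and 113 CPM in muscle and 104, 111 and 106 CPM in the lymph node libraries, which overlap (0.08 ± 0.19, adjusted p = 0.908). Per kb of exon, the level of Rpl22l1 relative to Rpl22 was 1.19, 0.982 and 0.526 in muscle 2, 3 and 4 and 1.74, 1.93 and 1.94 in lymph node 1, 2 and 3. This ratio did not overlap between tissues and averaged 0.898 ± 0.339 in muscle and 1.87 ± 0.113 in lymph node (SD, n = 3 each). Of the words of Rpl22l1 70.7% are shared with other genes, and of those of Rpl22 11.9%.

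The other paralogs showed no tissue difference that passed the test. Rps27l, a relative of Rps27 known as a target of p53, measured 39.0, 46.9 and 26.9 CPM in muscle and 49.1, 32.7 and 40.1 CPM in the lymph node libraries (-0.05 ± 0.27, adjusted p = 0.969). Rpl7l1, a relative of Rpl7, measured 52.7, 42.3 and 18.8 CPM in muscle and 50.8, 47.3 and 52.8 CPM in the lymph node libraries (-0.29 ± 0.30, adjusted p = 0.739). Both overlapped between tissues apart from the low value in muscle 4.

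Rps4l, annotated in GENCODE M21 as a transcribed processed pseudogene, measured 28.0 and 26.9 CPM in muscle 2 and 3 and 27.4, 23.6 and 21.4 CPM in lymph node. It had 0 counts in muscle 4, where 3 counts correspond to 8.06 CPM (-0.16 ± 0.55 with all libraries, adjusted p = 0.942, and 0.18 ± 0.25 without muscle 4). Rpl39l, a paralog of Rpl39 best known from testis, was low everywhere, at 3.16, 1.54 and 0 CPM in muscle and 5.71, 3.44 and 4.55 CPM in the lymph node libraries. Every muscle library was below every lymph node library, on 36 counts in all. Per kb of exon its level relative to Rpl39 was 0.0597, 0.0327 and 0 in muscle 2, 3 and 4. In lymph node 1, 2 and 3 it was 0.112, 0.0693 and 0.101, again without overlap. The same ratios of Rps27l to Rps27 and of Rpl7l1 to Rpl7 overlapped between tissues. Rpl3l, the paralog of Rpl3 of heart and skeletal muscle fibres, had at most 2 counts in any library, with 4 in muscle and 3 in lymph node. The testis paralog Rpl10l had 3 counts, all in lymph node.

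The core partners of these paralogs are Rps27, Rpl7, Rps4x and Rpl39. Rps27 measured 78.1, 71.5 and 191 CPM in muscle and 103, 113 and 91.1 CPM in the lymph node libraries. Muscle 4 was the highest library and muscle 2 and 3 the lowest, which turned its sign (0.06 ± 0.35, adjusted p = 0.966, and -0.46 ± 0.16 without muscle 4, adjusted p = 0.0947). Rpl7 measured 261, 259 and 341 CPM in muscle and 331, 340 and 321 CPM in the lymph node libraries (-0.21 ± 0.18, adjusted p = 0.669). Rps4x, encoded on the X chromosome, measured 223, 260 and 301 CPM against 307, 339 and 336 CPM, without overlap (-0.34 ± 0.18, adjusted p = 0.451). Without muscle 4 it stood just outside the threshold (-0.45 ± 0.14, adjusted p = 0.0504). Rpl39 measured 39.0, 34.6 and 48.4 CPM in muscle and 37.7, 36.5 and 33.2 CPM in the lymph node libraries (0.14 ± 0.24, adjusted p = 0.855).

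Muscle 4 was not uniformly higher. Compared with the mean of muscle 2 and 3, its CPM was higher in 69 of the 81 members, with a median ratio of 1.41. The largest ratios were 3.49 for Rpl12, which binds at the base of the ribosomal stalk, 3.33 for Rpl23a (70 counts in all libraries together), 2.55 for Rps27 and 2.27 for Rps16. All 5 paralogs among the members were on the other side, at 0 for Rps4l and Rpl39l, 0.396 for Rpl7l1, 0.489 for Rpl22l1 and 0.626 for Rps27l. The 0 of Rpl39l says little, because 1 count in muscle 4 is 2.69 CPM, above its mean of 2.35 CPM in muscle 2 and 3. Rps2 was at 0.521 and Rpl24 at 0.648. In muscle 4 54 of the 81 members had under 50 counts, and the median member had 38, so single ratios carry wide counting error.

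Rpl12 had the highest ratio of muscle 4 to muscle 2 and 3. It measured 86.5 and 63.0 CPM in muscle 2 and 3 and 261 CPM in muscle 4, against 95.9, 104 and 98.8 CPM in lymph node. Its log2 fold change of 0.36 ± 0.45 with all libraries, the highest of any member, became -0.41 ± 0.17 without muscle 4 (adjusted p = 0.794 and 0.162). Across the members, log2 levels of muscle 4 had Pearson r between 0.876 and 0.909 with the other libraries. All other pairs had r between 0.974 and 0.991, as a description over 81 genes that are not independent replicates. Depth differs between these libraries as well, and with every library thinned to the total of muscle 4 the test again called 0 of 75 members that passed the filter. There 3.48% of the 6404 genes tested were called lower.

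**Figure D4:**
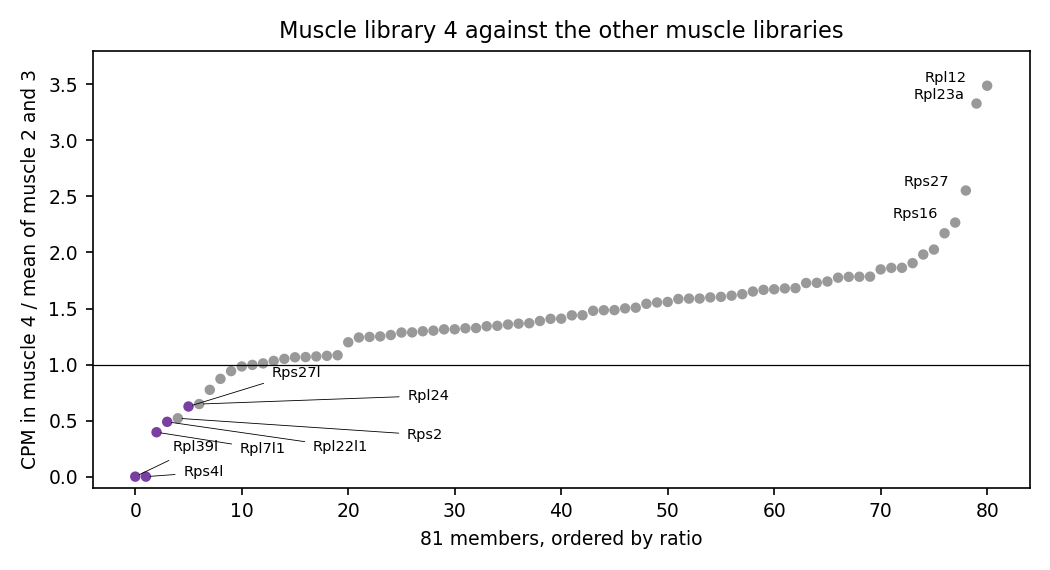
Ratio of CPM in muscle 4 to the mean of muscle 2 and 3 for each of the 81 members, ordered by size, with the 5 paralogs among them in purple and a line at 1. All 5 paralogs lie below 1 and 69 members lie above it, with Rpl12 highest at 3.49. For Rpl39l, 1 count in muscle 4 would already give a ratio above 1.

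Among the 5 members with the largest negative log2 fold change in the fit with all libraries were Rpl24, Rpl22l1, Rps28 and Rpl38, and none passed the test. Rpl24, which forms a bridge between the subunits, measured 3.69, 4.61 and 2.69 CPM in muscle and 9.71, 8.16 and 9.56 CPM in the lymph node libraries, without overlap (-1.22 ± 0.47, adjusted p = 0.253). It had 71 counts in all and shares 82.8% of its words with other genes. Rps28 measured 31.6, 23.8 and 24.2 CPM in muscle and 44.5, 44.2 and 35.1 CPM in the lymph node libraries (-0.60 ± 0.26, adjusted p = 0.311). Rpl38, known from mouse mutants with changed vertebrae, measured 20.04, 14.6 and 21.5 CPM against 25.1, 27.1 and 26.9 CPM (-0.53 ± 0.30, adjusted p = 0.483).

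At the other end were Rpl12, Rps15, Rpl30, Rps10 and Rps25. Rps15 measured 185, 164 and 309 CPM in muscle and 155, 206 and 170 CPM in the lymph node libraries (0.28 ± 0.26, adjusted p = 0.707). Rps10 measured 53.8, 53.8 and 99.5 CPM against 56.0, 56.7 and 54.6 CPM (0.23 ± 0.27, adjusted p = 0.778), and Rps25 77.5, 83.8 and 134 CPM against 90.2, 91.9 and 63.3 CPM (0.22 ± 0.27, adjusted p = 0.788). In Rps10, Rps15 and Rps25 the positive sign came with muscle 4, and without it each had a log2 fold change between -0.06 and -0.03. Rpl30 kept its sign at 48.0, 52.3 and 64.5 CPM in muscle and 39.4, 42.1 and 53.7 CPM in the lymph node libraries (0.25 ± 0.23, adjusted p = 0.712, and 0.14 ± 0.20 without muscle 4).

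The stalk recruits elongation factors to the ribosome, and none of its genes passed the test. Rplp0, its base, measured 445, 427 and 578 CPM in muscle and 582, 547 and 530 CPM in the lymph node libraries (-0.20 ± 0.18, adjusted p = 0.695). Rplp1 measured 210, 190 and 317 CPM in muscle and 235, 214 and 205 CPM in the lymph node libraries (0.11 ± 0.22, adjusted p = 0.882). Rplp2 measured 60.7, 56.1 and 118 CPM against 65.7, 84.2 and 61.9 CPM (0.07 ± 0.30, adjusted p = 0.957). In all 3 genes muscle 4 was the highest muscle library, and without it their log2 fold changes were -0.35, -0.13 and -0.28.

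Rpsa, a small subunit protein also described as a laminin receptor, measured 111, 118 and 161 CPM in muscle and 161, 149 and 142 CPM in the lymph node libraries (-0.24 ± 0.20, adjusted p = 0.672). Rps6, the substrate of the S6 kinases that serves as a readout of mTOR activity, measured 58.5, 68.4 and 91.4 CPM against 74.8, 88.5 and 83.8 CPM (-0.22 ± 0.23, adjusted p = 0.731). The transcript level says nothing of its phosphorylation.

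Members differed far more from each other than between tissues. Lymph node means ran from 4.57 CPM for Rpl39l to 921 CPM for Rpl4. The 6 members with the highest mean CPM, among them Rpl4, Rps3, Rplp0, Rpl8 and Rpl7, held between 30.8% and 33.9% of all member counts in each library. Rpl4 measured 726, 757 and 927 CPM in muscle and 899, 954 and 910 CPM in the lymph node libraries (-0.20 ± 0.17, adjusted p = 0.677). Rpl8 measured 437, 409 and 548 CPM against 547, 534 and 534 CPM (-0.22 ± 0.18, adjusted p = 0.658). In both genes muscle 2 and 3 were below and muscle 4 within or just above the lymph node range.

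Per kb of exon, members spanned a wide range. Among the 3 highest members over both tissues were Rpl4 at 561 CPM per kb and Rpl8 at 480. The lowest were Rpl39l, Rpl24 at 9.46 CPM per kb and Rpl7l1. Over the 80 protein-coding members, lymph node CPM per kb and the percent of shared words had a Spearman rho of 0.18, given as a description. Rpl8 shares 8.58% of its words with other genes and Rpl4 39.6%, whereas Rplp1, at 438 CPM per kb in lymph node, shares 80.0%. More than 50% of words were shared in 37 of the 81 members. Counts of 356 noncoding models that resemble a ribosomal protein gene amounted to between 1.27% and 1.68% of the member counts in each library. How multi-mapped reads were counted is not known, so levels between members cannot be read as amounts of transcript.

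Of 6 ribosome components that the symbol rule leaves out, 4 were tested and none was called. Rps3a1, the mouse gene of the small subunit protein Rps3a, measured 140, 172 and 207 CPM in muscle and 210, 233 and 192 CPM in the lymph node libraries (-0.31 ± 0.20, adjusted p = 0.554). Rack1, a scaffold protein at the head of the small subunit, measured 522, 523 and 624 CPM against 582, 635 and 652 CPM (-0.17 ± 0.17, adjusted p = 0.733). Fau, which encodes a ubiquitin-like protein fused to a small subunit protein, measured 58.5, 35.3 and 132 CPM against 54.8, 62.7 and 42.8 CPM (0.36 ± 0.42, adjusted p = 0.769). The count of 0 held without muscle 4 (edgeR, with 0 genes of this list at an unadjusted p under 0.05 with all libraries and 1 without muscle 4). The shares of all genes at that p were 15.1% and 23.3%.

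Mitochondrial ribosomal proteins, which build the separate ribosome of mitochondria, gave no call. Their genes summed to 1578 ± 90.6 CPM in muscle and 1605 ± 63.3 CPM in the lymph node libraries (SD, n = 3 each), and muscle 4, at 1551 CPM, lay between muscle 2 and 3. Of 75 tested, 0 were called, where 4.32% of all genes were, and the median log2 fold change was -0.02. At an unadjusted p under 0.05 (edgeR) there were 2, 0 of them lower in muscle, against 15.1% of all genes in either direction. Without muscle 4 the counts were 0 of 76 and 0, against 12.4% and 23.3% of all genes, with a median of -0.01. Whether they differ from the cytosolic members in their tissue difference was not tested.

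Other genes of translation gave few calls, to be read against the 2.86% of all genes called lower with all libraries and the 7.58% without muscle 4. At an unadjusted p under 0.05 (edgeR) the shares of all genes, in either direction, were 15.1% and 23.3%. Of 35 tested initiation factors 0 were called (1 at an unadjusted p under 0.05), and without muscle 4 2 of 37 fell, a share below that of all genes, namely the RNA helicases Eif4a1 (-0.68 ± 0.21, adjusted p = 0.0468) and Eif4a2 (-0.52 ± 0.15, adjusted p = 0.0304). Of 11 elongation and termination factors 0 were called in either fit (edgeR, with 0 and 5 at an unadjusted p under 0.05, 4 of the 5 lower in muscle). Of 19 other genes with TOP messenger RNAs 0 were called with all libraries (1 at an unadjusted p under 0.05). Without muscle 4 1 fell, the abundant growth-related protein Tpt1, at 158 and 168 CPM in muscle 2 and 3 against 248, 262 and 252 CPM in lymph node (-0.65 ± 0.14, adjusted p = 0.00543), with 234 CPM in muscle 4. The median log2 fold change of that list was -0.19 with all libraries and -0.22 without muscle 4.

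Of 58 tested ribosome biogenesis factors 1 fell and 0 rose, with a median of 0.04. It was Nop58, a core protein of the particles that methylate ribosomal RNA, at 33.8, 44.6 and 53.8 CPM in muscle and 149, 162 and 173 CPM in the lymph node libraries (-1.93 ± 0.23, adjusted p = 0.00177). All muscle libraries were far below all lymph node libraries, and the call held without any 1 of the 6 libraries (adjusted p at most 0.0208). Without muscle 4 Sbds, which helps release a factor that keeps the subunits apart, also fell (-0.60 ± 0.17, adjusted p = 0.0323). Of 15 tested genes of RNA polymerase I, which copies ribosomal DNA, 0 were called in either fit. At an unadjusted p under 0.05 (edgeR) there were 0 and 1, against 15.1% and 23.3% of all genes.

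Among 23 tested regulators of ribosomal protein supply, Myc fell and 0 rose with all libraries. Myc, a transcription factor that drives ribosome production, measured 32.7, 27.7 and 102 CPM in muscle and 298, 131 and 190 CPM in the lymph node libraries, without overlap (-2.12 ± 0.49, adjusted p = 0.0448). The call was lost without any 1 library other than muscle 4 (adjusted p up to 0.209), and without muscle 4 the value was -2.76 ± 0.31 (adjusted p = 2.97e-05). Without muscle 4 the mTOR inhibitor Deptor rose, at 85.4 and 96.8 CPM in muscle 2 and 3 against 60.5, 66.6 and 53.3 CPM in lymph node (0.59 ± 0.17, adjusted p = 0.0351). It was 1 of 23 regulators tested, where 4.79% of all genes were called higher without muscle 4, a similar share. Among 17 tested factors that work on nascent chains or at the ribosome, 1 fell, the chaperone Hspa8 (-1.32 ± 0.24, adjusted p = 0.0132). That call was lost without muscle 2 or 3 or lymph node 2 or 3 (adjusted p up to 0.0989).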

How the data were processed

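The deposited table holds raw counts per gene symbol for 6 libraries, and per the submitters' processing notes STAR 2.5.4 and featureCounts were used on mm10. The annotation release, the strand setting and the handling of multi-mapped reads were not given in the sources used here. Per the labels' protocols, polyadenylated RNA was amplified by PCR and read as paired 25-base reads, with no molecular identifiers named, so intervals cover counting error only. Columns were assigned by name: the lymph node columns match titles, and the muscle columns give the tissue only.

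Members and lists were chosen with earlier results of these data known. All genes were fitted in edgeR 4.0.16 (R 4.3.3): filterByExpr (10823 genes), TMM, tissue alone, quasi-likelihood F test, Benjamini-Hochberg adjustment over all genes. CPM use the TMM-scaled counts of tested genes, and each standard error is the log2 fold change over the root of F. Named were the 5 highest and 5 lowest log2 fold changes, the 6 highest CPM, the 3 highest and lowest per kb, the paralogs with partners, the stalk genes, Rpsa, Rps6, untested members, and up to 4 called genes per list. Some members that this rule or the text would name are not reported here. Of 52997 symbols 93.1% matched GENCODE M21 (GRCm38). Other marker sums (erythroid, endothelial, muscle fibre, satellite, Schwann and mural cells) were computed as well. DESeq2 1.42.0 and limma 3.58.1 were alternatives, and the procedure was tested on simulated data.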

Additional observations from a re-analysis of the deposited data

How the results depend on the processing

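In 22 alternatives to the test, the number of members higher in muscle was 0, and in 17 the number lower was 0 as well. Among the 17, 1 left out the members with over 50% shared words but kept the adjusted p-values of the main fit. Its 0 therefore followed from the main fit. The number lower was 9 with library weights in limma-voom, where 7.61% of all genes were lower. With muscle 3 and 4 summed it was 7 and with muscle 2 and 4 summed 9, where 6.88% and 7.35% of all genes were lower. When 1 library was left out it ran from 0 to 9, reaching 9 without muscle 4 only. Without muscle 4 7.58% of all genes were lower, against between 1% and 1.63% without any other library. The replicate block by column number gave 11 members lower (13.8% of the 80), where 8.34% of all genes were lower and 1530 of 10823 were called in either direction. The labels do not say that a number marks a shared animal or day, muscle 4 and lymph node 1 have no partner and so drop out of that contrast, and deviations of libraries with the same number had r = -0.03 (number 2) and 0.02 (number 3). The median log2 fold change of the members ran from -0.32 to -0.05 when 1 library was left out. It was -0.09 with RLE, -0.11 with upper-quartile and -0.04 with total-count scaling, where the median of all genes was 0.03, 0.02 and 0.10, and -0.30 with no filter, -0.21 with limma-voom and -0.05 with libraries thinned to the smallest. Without repeat models in the total, the summed share averaged 1.13% in muscle and 1.09% in lymph node, so the order of the means turned with muscle 4 (1.43%) while muscle 2 and 3 (0.966% and 1.01%) stayed below every lymph node library, and with protein-coding genes as the total the lymph node mean was 1.12%. Leaving out muscle 4, an alternative added after the data were seen for this share, gave 0.894% in muscle.

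Of 33 tested named members under 9 alternatives each, the sign changed 14 times, 9 of them without muscle 4, and no named member was called with all libraries. Rps27l was 0.0432 with total-count scaling. When 1 library was left out, log2 fold changes ran from -0.41 to 0.71 for Rpl12, -0.0368 to 0.15 for Rpl22, -0.13 to 0.24 for Rplp1, -0.28 to 0.25 for Rplp2, -0.0592 to 0.36 for Rps10, -0.0297 to 0.44 for Rps15, -0.0298 to 0.35 for Rps25, -0.46 to 0.30 for Rps27, -0.24 to 0.0801 for Rps27l and -0.48 to 0.18 for Rps4l. Counts in muscle 4 limit what can be seen there.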

Other observations

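Markers of cell types other than stroma and blood were also summed. Erythroid markers (6 genes) reached 626 CPM in muscle 4 and ran from 7.91 to 13.1 CPM in the other libraries. Endothelial markers (8 genes) ran from 239 to 383 CPM over all libraries. Muscle fibre markers (10 genes) summed to 69.1 and 79.1 CPM in muscle 2 and 3, 16.1 CPM in muscle 4 and between 10.8 and 15.0 CPM in lymph node. Satellite cell markers (6 genes) summed to between 96.8 and 105 CPM in muscle and between 164 and 218 CPM in lymph node. Most of the lymph node sum was Vcam1, at 176, 194 and 137 CPM in lymph node 1, 2 and 3 and at most 80.6 CPM in muscle. Pax7 was at most 1.54 CPM in any library. Of 3 satellite cell markers tested without muscle 4, Vcam1 had a log2 fold change of -1.95 and Des of 1.37, with a median of -0.0851. The higher lymph node sum therefore does not show more satellite cells there. Schwann cell markers (5 genes) summed to 10.02 and 9.99 CPM in muscle 2 and 3, 51.1 CPM in muscle 4 and between 29.2 and 34.3 CPM in lymph node. Mbp alone gave 43.0 CPM of the sum in muscle 4, where 3 of the 5 genes were at 0. Mural cell markers (6 genes) summed to between 86.5 and 124 CPM in muscle and between 21.9 and 40.5 CPM in lymph node. Most of the muscle sum was Cspg4, at 73.3, 81.5 and 69.9 CPM against 6.85, 9.45 and 11.4 CPM in lymph node. Of 2 mural markers tested without muscle 4, the other had a log2 fold change of -1.72. The part of these cells in the ribosomal protein values was not tested.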
